A study of Mus musculus with 6 samples.

Results

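Type I interferon signalling was examined through 9 genes of the proximal tibial epiphysis. These were the receptor subunits *Ifnar1* and *Ifnar2*, the signal transducer *Stat2* with its partner *Irf9*, and the interferon regulatory factors *Irf1*, *Irf3*, *Irf5*, *Irf7* and *Irf8*. The genes were chosen by name, as the rows of the count table whose Ensembl identifiers carry these symbols in the mouse annotation, and they are 9 of the 47729 genes listed. All 9 passed the filter on low reads, which left 19308 genes for testing. RNA was sequenced from the bones of 3 LS1 mice and 3 Control mice, all 14 days old. LS1 (Longshanks 1) is a line selectively bred for tibiae that are long for the body mass, and Control (ICR) mice were bred at random from the same outbred stock. The mice came from different families of generation F13, and the labels name no engineered allele or treatment. LS1 is a single selected line, so a response to selection and drift within that line cannot be told apart. Each library holds polyadenylated RNA from both epiphyses of 1 mouse, with growth plate, metaphysis, articular cartilage, secondary ossification centre and marrow together.

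Type I interferons are secreted by infected or stimulated cells and bind a receptor made of IFNAR1 and IFNAR2, which is present on nearly all nucleated cells. The bound receptor activates the kinases JAK1 and TYK2, and these phosphorylate STAT2. STAT2 and IRF9 are parts of the complex ISGF3, which binds interferon-stimulated response elements in the promoters of antiviral genes. Interferon gamma uses another receptor, whose signal acts on gamma-activated sequences. IRF3 and IRF7 are activated downstream of nucleic acid sensors and switch on the interferon genes, and IRF1, IRF7, IRF9 and STAT2 are themselves induced by interferon. IRF8 is also a lineage factor of monocytes, dendritic cells and B cells, which are made in the bone marrow.

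The values are normalized counts, that is, read counts scaled by the authors with a size factor for each library. Recovered library totals ran from 68803249 to 76581954 reads in Control and from 82227711 to 88745366 in LS1, so that every LS1 library was deeper, and the part of depth in the results was not tested. All 10 chondrocyte, 8 osteoblast and osteocyte and 10 erythroid marker genes had reads in each library. So did all the other cell markers listed, so this check cannot tell the labelled tissue from another. The LS1 libraries did not behave as a uniform group in this pathway. Over 21 interferon-stimulated effector genes, LS1 replicate 1 departed from the Control mean by a median of 1.76 on the log2 scale, LS1 replicate 2 by 3.0 and LS1 replicate 3 by 0.07. All 21 genes had a positive mean difference and limma called 0 of them, with the largest values in *Zbp1* at 3.27, *Rtp4* at 2.46 and *Ifit1* at 2.34 (limma adjusted p = 0.407, 0.405 and 0.501). DESeq2 called 7 of the 21, where it called 2.36% of all genes, and edgeR and limma-voom called 0. Limma called 0 of the 21 without LS1 replicate 2. Without LS1 replicate 3 it called 13 of the 21 and 1.68% of all genes, against 0.0725% of all genes with all 6 libraries. LS1 replicate 3 had the lowest effector median in LS1, so leaving it out raises these same differences. The count of 13 is therefore a description and no separate support. Results are therefore given library by library, and with LS1 replicate 2 or LS1 replicate 3 left out where this moved them.

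Sequence upstream of the transcription start is shown for 4 members, because they contain letters that match binding motifs of the factors studied here. The sequences are from RefSeq (GRCm38.p6), hold the 250 bases before the start and are written 5′ to 3′ on the strand of the gene, with motif matches in capitals. All 4 genes lie on the plus strand, *Irf1* at chr11:53769764-53770013, *Irf8* at chr8:120736108-120736357, *Stat2* at chr10:128270248-128270497 and *Ifnar2* at chr16:91372533-91372782.
Irf1: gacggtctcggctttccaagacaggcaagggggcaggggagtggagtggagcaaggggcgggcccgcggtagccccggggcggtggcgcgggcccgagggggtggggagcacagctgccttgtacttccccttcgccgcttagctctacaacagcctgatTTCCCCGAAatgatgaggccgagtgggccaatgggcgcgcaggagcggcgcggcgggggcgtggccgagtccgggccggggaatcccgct
Irf8: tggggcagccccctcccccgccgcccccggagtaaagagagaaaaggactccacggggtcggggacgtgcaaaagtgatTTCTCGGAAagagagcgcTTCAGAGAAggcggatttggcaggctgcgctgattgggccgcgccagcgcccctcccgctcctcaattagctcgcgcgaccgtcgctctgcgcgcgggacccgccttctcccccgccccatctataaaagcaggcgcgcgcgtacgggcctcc
Stat2: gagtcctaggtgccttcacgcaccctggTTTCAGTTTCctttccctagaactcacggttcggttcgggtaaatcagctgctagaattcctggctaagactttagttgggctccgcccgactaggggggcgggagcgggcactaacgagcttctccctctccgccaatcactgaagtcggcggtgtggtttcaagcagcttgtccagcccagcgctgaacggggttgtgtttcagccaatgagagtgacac
Ifnar2: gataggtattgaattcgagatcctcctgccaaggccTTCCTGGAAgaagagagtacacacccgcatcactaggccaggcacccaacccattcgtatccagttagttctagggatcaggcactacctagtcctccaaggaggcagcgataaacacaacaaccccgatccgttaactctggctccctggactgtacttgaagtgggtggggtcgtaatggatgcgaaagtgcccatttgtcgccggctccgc

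A gamma-activated sequence was searched as TTCNNNGAA, which reads the same on both strands, and a response element as GAAANNGAAA on either strand. The windows searched were 300 bases long and ran 50 bases past the start, and the 9 members had 12 such windows because some have more than 1 start. *Irf1* held the match TTCCCCGAA at bases -90 to -82 from its start. *Irf8* held TTCTCGGAA at -171 to -163 and TTCAGAGAA at -153 to -145. *Ifnar2* held TTCCTGGAA at -214 to -206, and in *Ifnar1* a match spanned the start. The only response element matched was TTTCAGTTTC of *Stat2*, on the opposite strand at -222 to -213. No match lay in the windows of *Irf3*, *Irf5*, *Irf7* and *Irf9*. Among all 32851 RefSeq windows of this length, 8.30% held the first motif and 3.44% the second. The letters alone do not show that a factor binds.

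In the comparison of LS1 with Control, none of the 9 genes passed the limma threshold of an adjusted p of 0.05 (0 of 9 members, against 0.0725% of all genes tested). Before adjustment 1 member, *Irf5*, passed 0.05 in limma, as did 12.9% of all genes. On the recovered reads, DESeq2 called 0 of 9 members and 2.36% of all genes, and edgeR and limma-voom likewise called 0 members. The mean difference was positive for 7 members and negative for *Ifnar2* and *Irf3*. The median log2 fold change of the 9 genes was 0.47, beside 0.0054 over all genes tested, and it was 0.17 without LS1 replicate 2. The groups were fully separated in 1 member, *Ifnar1*, which was higher in LS1 as were 10.3% of all genes, and in 0 members in the other direction, as were 8.94% of all genes.

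**Figure D1:**
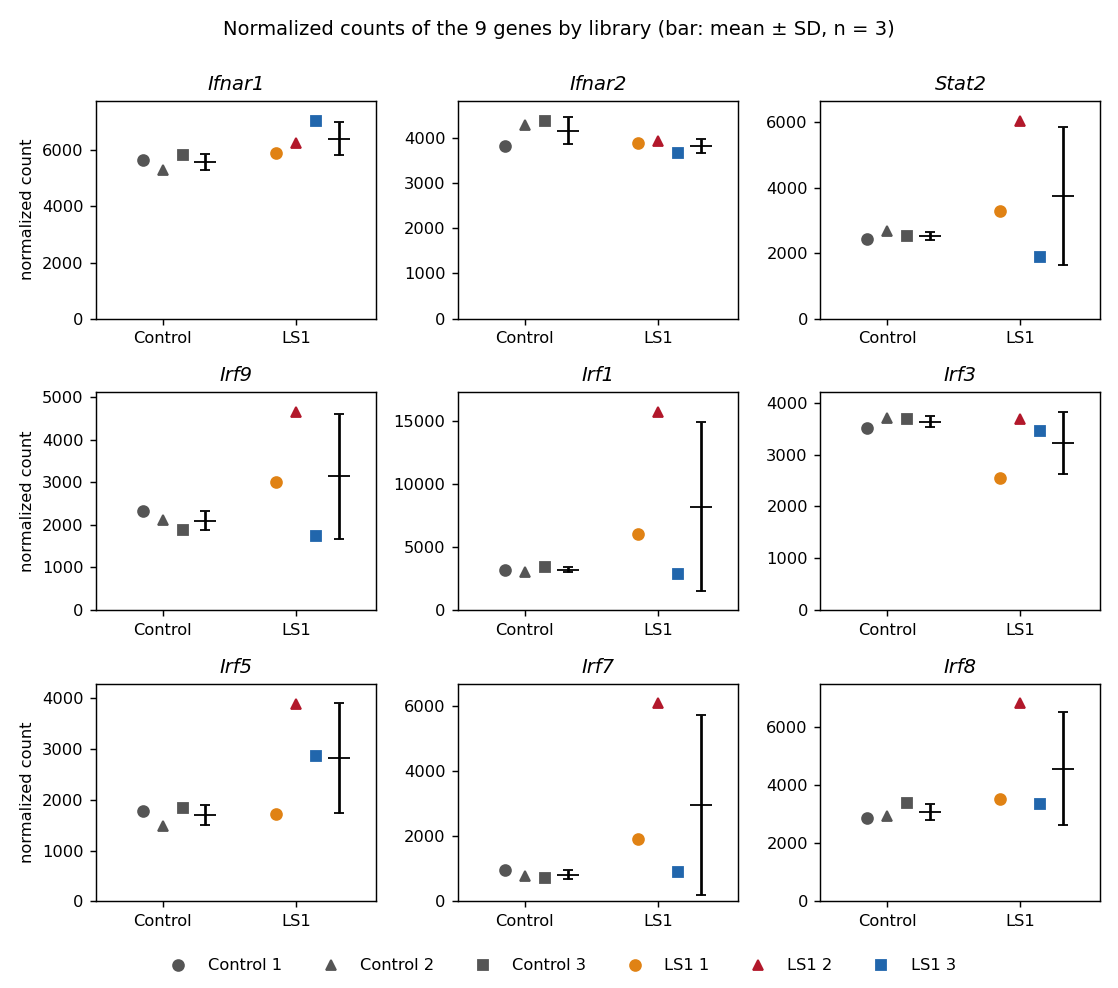
Normalized counts (vertical axes, starting at 0) of the 9 genes in the 3 Control and the 3 LS1 libraries, 1 point per mouse, with the mean ± SD of each group beside the points. In *Irf1* and *Irf7* LS1 replicate 2 stands highest and LS1 replicate 1 lies between it and Control. LS1 replicate 3 lies within the Control range in *Irf7* and below each Control library in *Irf1*.

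In 8 of the 9 genes, all but *Ifnar2*, the LS1 libraries were spread more widely than the Control libraries. The share of all genes with this property was not counted, so the count is not read as a trait of these genes. The LS1 ranges of *Ifnar1* and *Irf3* were wider than those of only 19.1% and 53.2% of all genes tested. LS1 replicate 1 was above every Control library in 6 of the 9 genes, where 34.5% of all genes were. LS1 replicate 2 was above every Control library in 7 of the 9 genes, where 30.1% of all genes were. LS1 replicate 3 was above every Control library only in *Ifnar1* and *Irf5*, that is 2 of 9, where 30.3% of all genes were. The Control libraries lay close together, with a ratio of the highest to the lowest between 1.06 for *Irf3* and 1.36 for *Irf7*. The same ratio within LS1 was 6.81 for *Irf7* and 5.53 for *Irf1*, and only 1.07 for *Ifnar2*. The LS1 range of *Irf7* was wider than that of 98.9% of all genes tested, and its Control range was wider than that of 59.1%.

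*Irf7* encodes the factor that amplifies the interferon response and was the member with the largest mean difference. It lies on chromosome 7 of GRCm38 from 141262706 to 141266481 on the minus strand (ENSMUSG00000025498). The Control libraries held 964, 795 and 710.1 normalized counts. The LS1 libraries held 1907, 6087 and 895. LS1 replicate 2 and LS1 replicate 1 were above all Control libraries, and LS1 replicate 3 was inside their range. Control averaged 823 ± 129 (SD, n = 3) and LS1 averaged 2963 ± 2753 (SD, n = 3). The log2 fold change was 1.42 (SE 0.73, 95% interval -0.46 to 3.29, limma adjusted p = 0.491). It was 0.68 without LS1 replicate 2 and 2.06 without LS1 replicate 3, with adjusted p-values from limma of 0.459 and 0.147. *Irf7* overlaps *Phrf1* on the opposite strand, and *Phrf1* had counts of 8226 to 9097 in Control and 5855 to 7684 in LS1.

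*Irf1*, the factor that gave the family its name, had the same order of the LS1 libraries at a higher level. It lies on chromosome 11 from 53770014 to 53778374 (ENSMUSG00000018899), and its upstream sequence is the first of those printed above. The Control libraries had 3151, 3019 and 3419.9 normalized counts. The LS1 libraries had 6047, 15754 and 2851. LS1 replicate 2 was 4.93-fold and LS1 replicate 1 was 1.89-fold above the Control mean, while LS1 replicate 3 was below each Control library. Control averaged 3197 ± 204 (SD, n = 3) and LS1 averaged 8217 ± 6720 (SD, n = 3), a log2 fold change of 1.02 (SE 0.66, 95% interval -0.69 to 2.73, limma adjusted p = 0.573). Leaving out LS1 replicate 2 gave 0.38, and leaving out LS1 replicate 3 gave 1.61. The gene *Gm17334* overlaps *Irf1* on the opposite strand, with 25, 35 and 5.5 counts in Control and 56, 155 and 15 in LS1. Its LS1 libraries had the same order as those of *Irf1*, and the part of shared reads was not tested.

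*Stat2* and *Irf9*, which act together in ISGF3, had the same order of LS1 libraries as *Irf1*. *Stat2* (chromosome 10, 128270559 to 128292849) had 2418, 2661 and 2526 normalized counts in Control and 3288, 6046 and 1891 in LS1. *Irf9* (chromosome 14, 55603571 to 55610030) had 2317, 2111 and 1874 in Control and 3014, 4649 and 1741 in LS1. In both genes LS1 replicates 1 and 2 were above all Control libraries and LS1 replicate 3 was below all of them. The log2 fold change of *Stat2* was 0.40 (SE 0.38, limma adjusted p = 0.695), and without LS1 replicate 2 it changed sign to -0.023, while it was 0.82 without LS1 replicate 3. For *Irf9* the log2 fold change was 0.47 (SE 0.31, limma adjusted p = 0.551), which was 0.13 without LS1 replicate 2 and 0.84 without LS1 replicate 3. The exons of *Irf9* overlap those of *Rnf31* on the same strand, and how shared reads were counted is not given in the sources used here. *Rnf31* had 1596 to 1637 counts in Control and 1146 to 1985 in LS1.

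*Irf8*, the lineage factor of monocytes and dendritic cells, was far above Control in a single library. It lies on chromosome 8 from 120736358 to 120756694. The Control libraries had 2881, 2948 and 3406 normalized counts, and the LS1 libraries had 3543, 6826 and 3354. LS1 replicate 2 was 2.22-fold above the Control mean, LS1 replicate 1 only just passed the highest Control library, and LS1 replicate 3 did not. The log2 fold change was 0.50 (SE 0.24, limma adjusted p = 0.426) and 0.17 without LS1 replicate 2.

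*Irf5*, which acts downstream of Toll-like receptors in myeloid cells, had another order of libraries than *Irf1* and *Irf7*. The gene is on chromosome 6 from 29526625 to 29541871. Normalized counts were 1773, 1474 and 1842 in Control and 1719, 3873 and 2862 in LS1. Here LS1 replicates 2 and 3 were above all Control libraries, and LS1 replicate 1 was within their range. Control averaged 1696 ± 195 (SD, n = 3) and LS1 averaged 2818 ± 1078 (SD, n = 3). Its log2 fold change was 0.66 (SE 0.26, 95% interval 0.09 to 1.23, limma adjusted p = 0.323). It ran from 0.39 without LS1 replicate 2 to 0.98 without LS1 replicate 1, with adjusted p-values from limma of 0.565 and 0.0628. *Irf5* overlaps *Tnpo3* on the opposite strand, with 9411 to 9819 counts in Control and 8962 to 10117 in LS1.

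*Irf3*, the constitutive factor that starts the response downstream of the sensors, was furthest from Control in LS1 replicate 1, where it was lower. It is encoded on chromosome 7 from 44997648 to 45002848. Control had 3509, 3714 and 3693 normalized counts, and LS1 had 2553, 3684 and 3448. LS1 replicate 1 was at 0.702 of the Control mean, LS1 replicate 2 was inside the Control range, and LS1 replicate 3 was just under the lowest Control library. The log2 fold change was -0.19 (SE 0.16, 95% interval -0.54 to 0.16, limma adjusted p = 0.640). It was -0.029 without LS1 replicate 1 and -0.29 without LS1 replicate 2. *Bcl2l12* overlaps *Irf3* on the opposite strand.

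The receptor subunits varied least within LS1. *Ifnar1* (chromosome 16, 91485238 to 91507441) had 5640.2, 5293 and 5847 normalized counts in Control and 5903, 6272 and 7056 in LS1. The LS1 values all exceeded the Control values, and the highest was LS1 replicate 3, the library without higher *Irf1* or *Irf7*. The means were 5593 ± 280.0 (SD, n = 3) and 6410 ± 589 (SD, n = 3), a log2 fold change of 0.19 (SE 0.13, 95% interval -0.09 to 0.47, limma adjusted p = 0.546) that was 0.12 without LS1 replicate 3. *Ifnar2* (chromosome 16, 91372783 to 91405589) had 3818, 4285 and 4387 in Control and 3895, 3931 and 3658 in LS1. These values overlapped, with a log2 fold change of -0.12 (SE 0.13, 95% interval -0.40 to 0.16, limma adjusted p = 0.723) that was -0.18 without Control replicate 1. The exons of *Ifnar2* overlap those of *Gm21970* on the same strand, which is listed at 0 in every library. Both genes belong to a cluster of receptor genes on chromosome 16, with *Il10rb* between them and *Ifngr2* beyond *Ifnar1*. *Il10rb*, a subunit of the receptors for interleukin-10 and interferon lambda, had a log2 fold change of 0.14 (limma adjusted p = 0.699), and *Ifngr2*, a subunit of the interferon gamma receptor, had 0.16 (limma adjusted p = 0.649). In *Il10rb*, as in *Ifnar1*, every LS1 library was above all Control libraries, while the groups overlapped in *Ifngr2*.

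**Figure D2:**
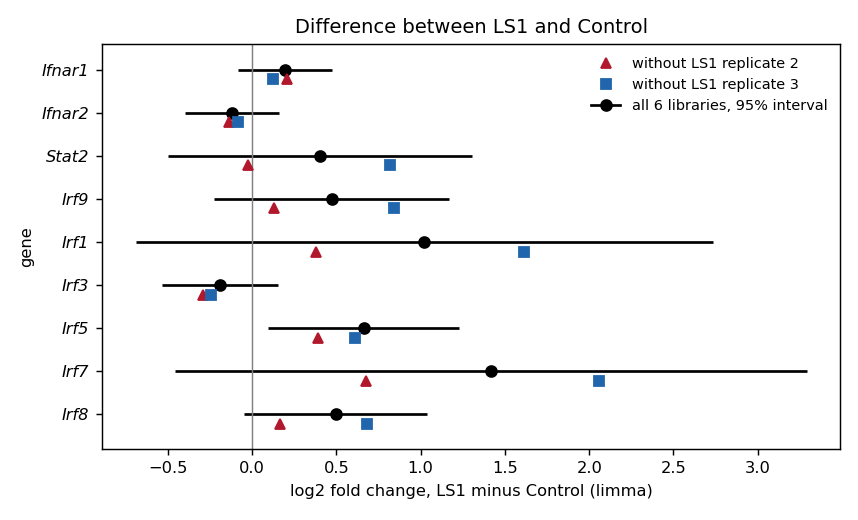
Log2 fold change between LS1 and Control (horizontal axis, from limma on log2(normalized count + 1)) of each gene, with its 95% interval over all 6 libraries (black) and its value without LS1 replicate 2 (red) or LS1 replicate 3 (blue). The intervals of all genes but *Irf5* include 0, and *Irf7* moves between 0.68 and 2.06 with the library left out.

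Levels were also compared between genes per length, in RPKM, which scales reads by exon length and library total. Exon length was the union of all annotated exons of a gene. For *Irf7* this union, 3776 bases, covers the gene from start to end, introns of shorter transcripts included. Such a length lowers RPKM by an amount that differs between genes. The order between genes holds for this length only, and other lengths were not tried. In Control, *Ifnar2* was highest at 16.2 ± 1.17 RPKM (SD, n = 3), followed by *Irf3* at 13.7 ± 0.477 and *Ifnar1* at 12.2 ± 0.469. *Irf1* had 10.4 ± 0.547 RPKM and *Irf5* had 7.56 ± 0.789. *Irf8*, *Stat2* and *Irf9* came next at 5.65, 5.54 and 5.05 RPKM, and neighbours among these 3 genes overlapped between libraries. *Irf7* was the lowest in 3 of 3 Control libraries, at 2.82 ± 0.451 RPKM (SD, n = 3). In LS1 replicate 2 the order was different, with *Irf1* first at 51.3 RPKM and *Irf7* in rank 2 at 20.9 RPKM. *Irf1* was also first in LS1 replicate 1, at 19.4 RPKM, but in rank 5 of 9 in LS1 replicate 3, where *Irf7* was again the lowest.

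**Figure D3:**
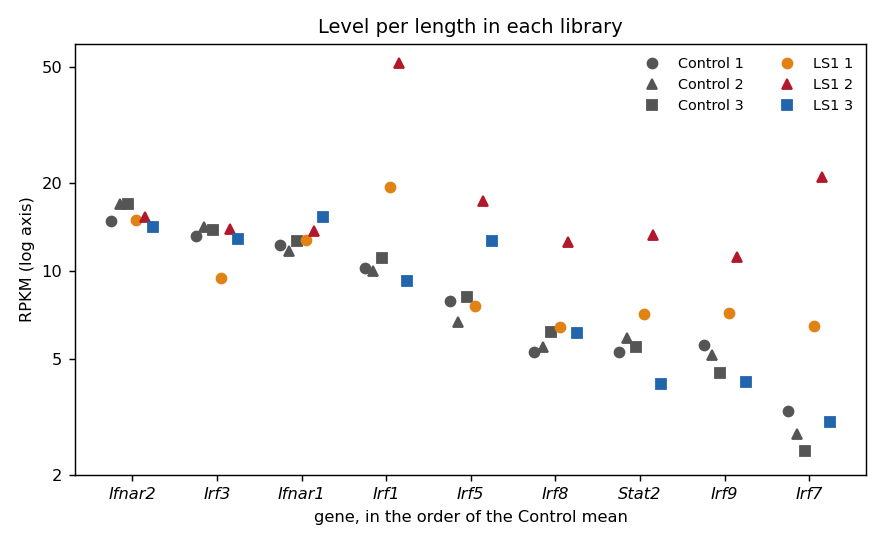
RPKM (vertical log axis) of the 9 genes in each library, ordered by the Control mean from left to right. The length used is the union of all annotated exons, which for *Irf7* is the whole gene. *Ifnar2*, *Irf3* and *Ifnar1* lead in Control, and *Irf1* at 51.3 and *Irf7* at 20.9 RPKM lead in LS1 replicate 2.

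The other genes of the pathway were taken as lists of related factors, receptors, kinases, ligands, negative regulators and sensors. Of 69 listed genes 49 had enough reads to be tested, and limma called 0 of them after adjustment and 10 at p under 0.05 before it, where 12.9% of all genes passed before adjustment. With edgeR and limma-voom 0 were called, and DESeq2 called 3, *Dhx58*, *Tlr3* and *Tlr4*, where it called 2.36% of all genes. Their median log2 fold change was 0.07. Without LS1 replicate 3, limma called 5 of the 49 and 0 of the 9 members, against 1.68% of all genes. These 5 were *Usp18*, *Ddx58*, *Ifih1*, *Dhx58* and *Tlr3*. They are a description only, because the library left out had the lowest effector median in LS1.

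Of the other STAT genes, *Stat3*, which carries signals of interleukin-6 and related cytokines, had a log2 fold change of 0.27, and the growth hormone and cytokine effectors *Stat5a* and *Stat5b* had -0.19 and -0.15 (limma adjusted p = 0.463, 0.633 and 0.670). The groups overlapped in each of the 5 genes of this list. Of the other IRF genes, *Irf4*, a factor of B and plasma cells, had the largest difference, and it was negative. It had 4208, 4564 and 3251 normalized counts in Control and 3516, 1995 and 2576 in LS1. LS1 replicates 2 and 3 were below all Control libraries, and the log2 fold change was -0.60 (SE 0.21, limma adjusted p = 0.290). *Irf2bpl* and *Irf2bp1*, which encode members of the IRF2-binding protein family, had 0.10 and -0.03 (limma adjusted p = 0.812 and 0.965).

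**Figure D4:**
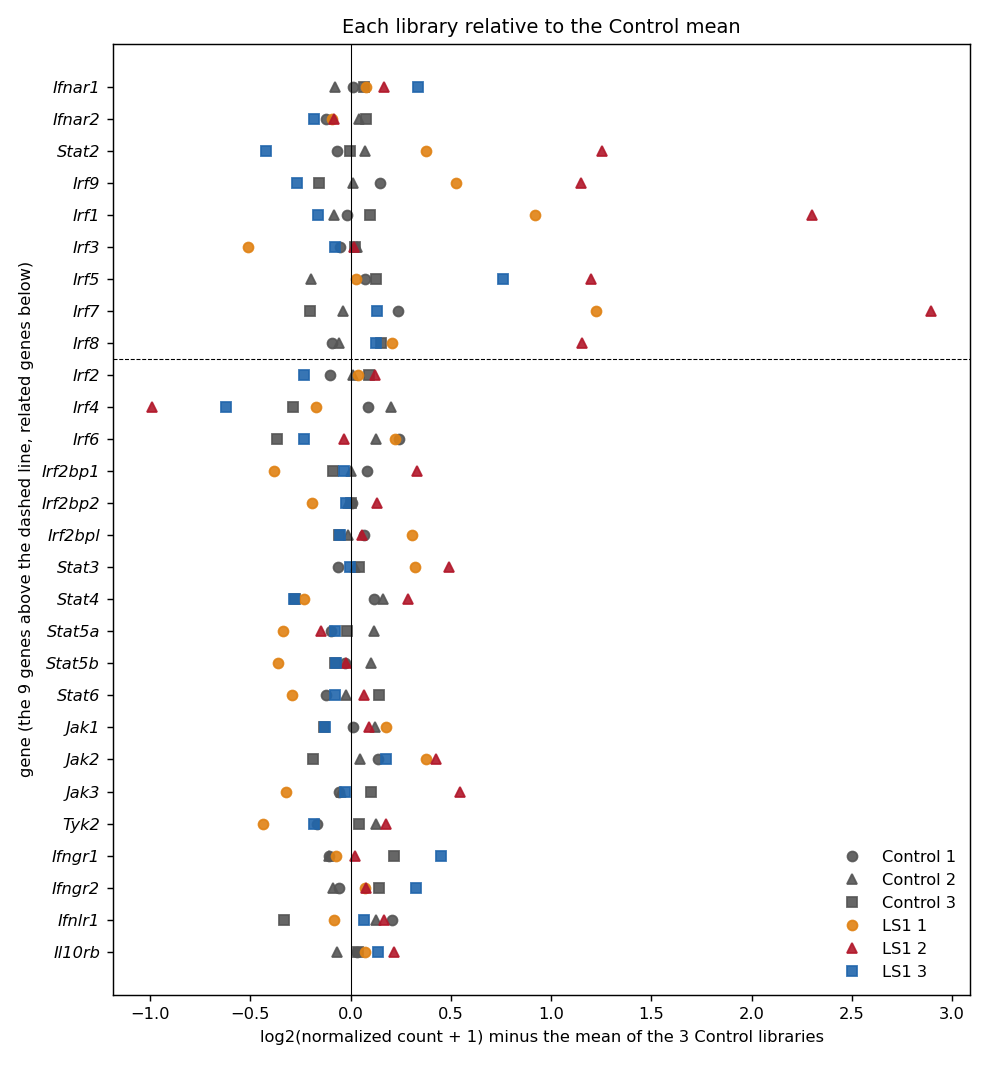
Difference of each library from the mean of the 3 Control libraries in log2(normalized count + 1) (horizontal axis), for the 9 genes above the dashed line and the other IRF, STAT, Janus kinase and interferon receptor genes below it. *Irf1* and *Irf7* extend furthest to the right in LS1 replicates 1 and 2, while the largest departure among the kinases and other receptors is 0.54, for *Jak3* in LS1 replicate 2.

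The kinases and the other receptors had small differences. *Jak2*, the kinase of the interferon gamma receptor, had a log2 fold change of 0.33 with no overlap between the lines (limma adjusted p = 0.347). *Tyk2* and *Jak3* had -0.15 and 0.07 (limma adjusted p = 0.755 and 0.924). The 4 other receptor genes lay between 0.05 and 0.16, and *Ifngr1*, the ligand-binding subunit for interferon gamma, had 0.13 (limma adjusted p = 0.763). Among the negative regulators, *Usp18*, which blocks signalling at IFNAR2, had 0.98 (limma adjusted p = 0.505). *Socs3*, a feedback inhibitor of cytokine receptors, had -0.44 (limma adjusted p = 0.445), and the phosphatase gene *Ptpn2* had 0.32 with groups that did not overlap (limma adjusted p = 0.317).

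Of 19 sensors and adaptors that lie upstream of IRF3 and IRF7, 15 had a positive and 4 a negative mean difference, and 0 passed the adjusted threshold of limma. The median log2 fold change of this list was 0.30. *Ifih1*, the cytosolic sensor of long double-stranded RNA, had 1.07, *Tlr3*, an endosomal RNA receptor, had 0.94, and *Dhx58*, a regulator of the cytosolic sensors, had 0.92 (limma adjusted p = 0.538, 0.250 and 0.301). The groups did not overlap in 5 of the 19 genes. The Toll-like receptor genes *Tlr3*, *Tlr4* and *Tlr8* and, separately, the adaptor gene *Myd88* were higher in every LS1 library. That is 4 of 19 beside 10.3% of all genes. The kinase gene *Irak1* was lower in every LS1 library, that is 1 of 19 beside 8.94%.

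The ligands were at the limit of detection, apart from *Ifng*. Of the 20 other interferon genes listed, 5 had no read in any library and none had more than 6 reads in a library. Summed over these 20 genes the reads were 7, 4 and 17 in Control and 17, 16 and 8 in LS1, so that no difference in these transcripts was detectable at this depth. *Ifng*, made by T cells and natural killer cells, had 11, 0 and 8 reads in Control and 119, 255 and 7 reads in LS1. LS1 replicates 1 and 2 were above all Control libraries and LS1 replicate 3 was within their range. The fit gave *Ifng* a log2 fold change of 3.55 (SE 1.52, limma adjusted p = 0.398), a value that depends on the pseudocount because 1 Control library had no read.

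In bulk RNA a change in the number of cells of a type and a change in the RNA of each cell cannot be told apart, so marker genes of the blood cells in marrow were measured beside the 9 genes. The summed normalized counts of 9 T and natural killer cell markers ran from 1996 to 2564 in Control and from 3058 to 7123 in LS1. The highest was LS1 replicate 2, and the median of this list there was 1.89 above the Control mean on the log2 scale, against 0.39 in LS1 replicate 1 and 0.18 in LS1 replicate 3. The same median ran from -0.16 to 0.24 in the Control libraries, so LS1 replicate 3 was inside their range on this measure. Within this list the largest log2 differences between the lines were those of *Cd8a* at 2.5, *Gzma* at 1.94 and *Ncr1* at 1.47 (limma adjusted p = 0.474, 0.257 and 0.159). In 1 of the 9, the natural killer cell gene *Klrb1c*, the mean was lower in LS1, with a difference of -0.30 (limma adjusted p = 0.652). The 12 macrophage and monocyte markers summed to 35936 to 51739 in Control and 50035 to 62982 in LS1, led by *Fcgr1*, *Ly6c2* and *Ccr2* with 1.75, 1.32 and 1.27 (limma adjusted p = 0.293, 0.213 and 0.370). The 8 dendritic cell markers summed to 3784 to 4215 in Control, below the 4437 to 6207 of LS1. Gene by gene, the groups were separated in only 2 of the 8, both higher in LS1, beside 10.3% of all genes. The mean was higher in LS1 for 7 of these markers and lower for 1. The 10 B cell markers summed to 55733 to 58349 in Control and 34096 to 52447 in LS1, lowest in LS1 replicate 2 as was *Irf4*. The 10 neutrophil markers had sums of 250327 to 350839 in Control, overlapping the LS1 range of 321467 to 372274. The 10 chondrocyte markers had a median log2 fold change of 0.56, with 9 of 10 higher in LS1, and the 10 erythroid markers one of -0.53, with 10 of 10 lower. No marker was at 0 in any library, and limma called 0 of them at the adjusted threshold. Their part in the differences of the 9 genes was not tested.

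**Figure D5:**
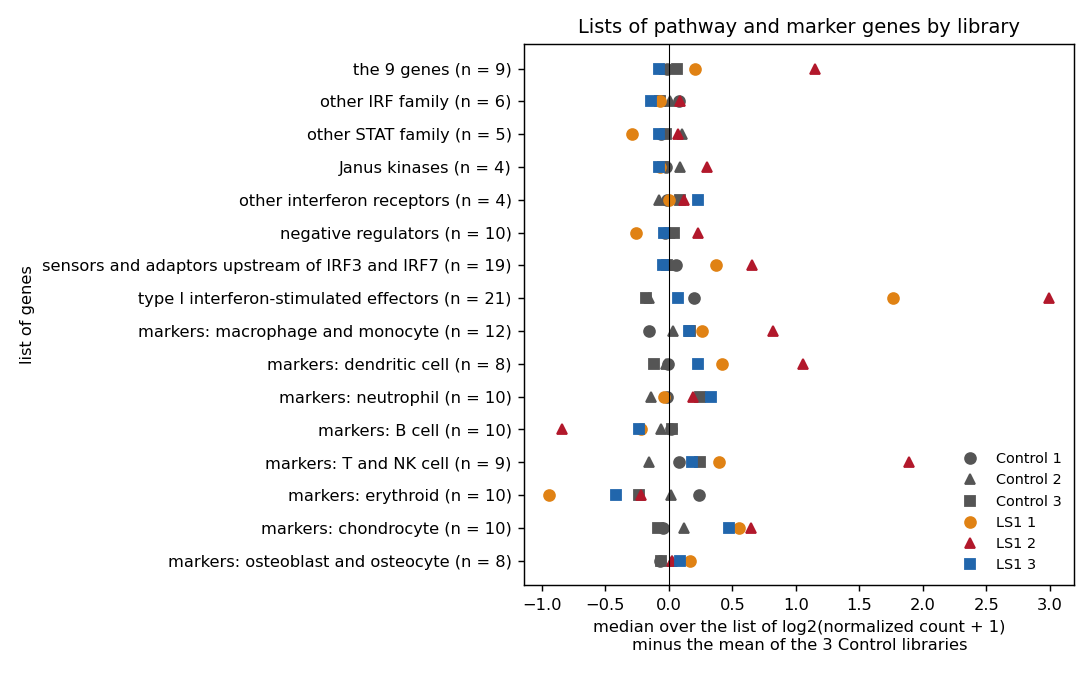
Median over each list of the difference from the Control mean in log2(normalized count + 1) (horizontal axis), 1 point per library. LS1 replicate 2 is highest for the effector genes at 3.0, for the T and natural killer cell markers at 1.89 and for the 9 genes at 1.15, and lowest for the B cell markers at -0.84.

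The tested genes whose values over the 6 libraries were most like those of a member are given as a description, without a test. For *Irf7* these were *Parp12*, *Mettl6* and *Gimap7*, with Pearson correlations of 0.994, 0.994 and 0.993. *Parp12* and *Tap1* led for *Irf1* with 0.996 and 0.994, before *Themis2* with 0.992. For *Irf8* they were *Psmb10*, *Apol6* and *Apol9b*, at 0.999, 0.999 and 0.997. *Pigu*, *Gm5540* and *G0s2* were nearest to *Ifnar1*, with 0.989, 0.987 and 0.986. LS1 replicate 2 was the highest library for the first 3 members and LS1 replicate 3 for *Ifnar1*, and all these correlations share the same 6 libraries.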

How the data were processed

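RNA from 3 Control and 3 LS1 mice was analysed as 1 library per mouse, grouped by the strain label. The authors mapped reads to GRCm38 (Ensembl release 84) using HISAT2 2.0.2 and obtained gene counts from featureCounts 1.4.6; whether strand was used is not given in the sources used here. The deposited table holds a signal per gene, the read count divided by 1 size factor per library as in DESeq2. Reads were recovered by dividing by the value of 1 read, and 100% of the values came out whole within 1e-06. Of the identifiers, 98.9% had a symbol in GENCODE M21, a later annotation on GRCm38 that also gave positions and exon lengths.

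A gene was kept if its recovered reads averaged 20 or more, and kept genes were tested with limma 3.58.1 (R 4.3.3) on log2(value + 1), with trend and robust moderation over all 6 libraries, with Benjamini-Hochberg adjustment and a threshold of 0.05. A fold change on this scale understates that of low genes. The scripts were tested on simulated data. Alternatives used edgeR 4.0.16 and DESeq2 1.42.0 on the recovered reads, other filters, pseudocounts and scalings, a replicate block, and each library left out. The smallest library held 68803249 reads. Two-sided p-values from limma set the difference between the lines against the spread between mice, moderated over all genes tested. An exact permutation test of 3 against 3 could not go below 0.1.

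The members and lists were chosen with earlier results of these data known, and 1 gene of the lists is not reported here. All members are named. From each other pathway list up to 3 tested genes with the largest absolute log2 fold change are named, with the 3 genes most correlated with *Irf7*, *Irf1*, *Irf8* and *Ifnar1*. The named cell markers, those with the largest differences in 2 lists, and the genes named for calls by DESeq2 or without LS1 replicate 3, *Klrb1c*, and the named sensors whose groups did not overlap were chosen after their values were seen.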

Additional observations from a re-analysis of the deposited data

How the results depend on the processing

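The number of members called was 0 in each of the 17 alternatives, and the median log2 fold change of the members ran from 0.17 to 0.68 with 1 library left out. Over all genes, the 14 calls of limma became 45 with no filter on reads, 7 without robust moderation, 8 with limma-voom, 7 with edgeR and 456 with DESeq2. They numbered 5 with edgeR on 5 libraries without Control replicate 1, an alternative chosen after seeing the data because the value of 1 read in that library is close to 1. With 1 library left out, limma called 5 genes (without Control replicate 2) to 324 genes (without LS1 replicate 3). The cause was not tested. The direction of each member held in all alternatives except for *Stat2*, at -0.023 without LS1 replicate 2 and up to 0.82 without LS1 replicate 3. The letters A, B and C that open the sample titles in both lines were tried as a replicate block, which called 12 genes and 0 members. Deviations of same-letter libraries correlated at 0.05, 0.02 and 0.22 for A, B and C, and those of different letters at -0.15 to 0.12. The C libraries thus had the highest correlation, and A and B lay within the range of different letters. The labels do not say what the letters mark, and they were not taken as pairs. For *Ifnar2*, *Irf9*, *Irf7*, *Irf5*, *Irf3* and *Irf1*, exons overlap those of another gene, and the effect of shared reads on the values was not tested.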
